A study of Drosophila melanogaster with 2 samples.

Results

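Transfer RNA (tRNA) genes are the genes whose RNA carries amino acids to the ribosome, and they are described here as places where the embryonic protein Bsh was or was not found on the chromosomes. The members are the genes that the Ensembl release 115 annotation of *Drosophila melanogaster* types as tRNA and that lie on the arms 2L, 2R, 3L and 3R or on the chromosomes 4 and X. They number 290 of the 312 annotated tRNA genes, the other 22 being mitochondrial, and 290 of the 23973 annotated genes on these arms. No tRNA gene lies on chromosome 4. The 290 genes carry 22 amino acid classes, counting initiator methionine (iMet) and selenocysteine (SeC) on their own, and 44 different anticodons. As a check of the label, the annotated anticodon was read at bases 32 to 38 of the gene sequence in 290 of 290 genes, and 290 of 290 had the same coordinates in the RefSeq annotation.

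Genes for tRNA are transcribed by RNA polymerase III (Pol III). Their promoter lies inside the gene, in an A box near its start and a B box further on, which the factor TFIIIC binds before TFIIIB and the polymerase arrive. In flies the genes exist in many copies, often in clusters, some of which mix amino acids, and a run of T in the coding strand ends transcription. Bsh (brain-specific homeobox) is a homeodomain transcription factor known for the specification of neurons, and homeodomains bind short AT-rich sites such as TAATTA. Chromatin immunoprecipitation with sequencing (ChIP-seq) was done on whole embryos of 10 to 12 h from a transgenic line that stably expresses Bsh fused at its C-terminus to green fluorescent protein (GFP), and chromatin was precipitated with anti-GFP antibody. Both replicates are biological replicates of this 1 group, so there is no comparison of conditions, and whole embryos do not resolve cell types. The control sample was not analysed here, and a peak at a tRNA gene in an untagged or otherwise tagged line was not looked at. The depth of each replicate is unknown, because the files are peak lists.

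The sequences of tRNA genes whose summits are described below are printed with matches to fixed letters of the A box and B box. They are given 5′ to 3′ on the coding strand of genome release 6 (dm6, sequence from RefSeq), in lower case. Capitals mark an A box core (TGGCNNA or TAGCNNA) in the first 20 bases and the last match to the B box core (GTTCNA). A gene without capitals at one of these places does not hold those letters, and other forms of the boxes were not searched. The gene of tyrosine was shown because it had the strongest peak and holds an intron, the glutamine and lysine genes because they lie far from any protein-coding start, the leucine gene because it holds both cores beside a strong peak, and the others because several copies share 1 sequence.
tRNA:Tyr-GTA-1-8, chr3R:8669081-8669174, minus strand: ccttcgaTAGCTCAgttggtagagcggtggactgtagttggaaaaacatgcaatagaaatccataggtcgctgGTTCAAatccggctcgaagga
tRNA:Gln-TTG-2-1, chrX:3427452-3427523, minus strand: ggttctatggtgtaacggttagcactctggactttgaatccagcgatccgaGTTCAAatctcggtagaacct
tRNA:Leu-TAA-2-1, chr3R:24112964-24113047, plus strand: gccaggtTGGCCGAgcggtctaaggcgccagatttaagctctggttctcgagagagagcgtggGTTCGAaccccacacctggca
tRNA:Lys-TTT-1-1, chr2L:8290727-8290799, plus strand: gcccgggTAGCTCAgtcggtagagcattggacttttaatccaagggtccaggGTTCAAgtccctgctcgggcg
tRNA:Asp-GTC-1-4, chr2L:8541552-8541623, minus strand: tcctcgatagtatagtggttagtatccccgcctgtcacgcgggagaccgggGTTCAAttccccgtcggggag
tRNA:Pro-AGG-1-2, chr2L:14598859-14598930, plus strand: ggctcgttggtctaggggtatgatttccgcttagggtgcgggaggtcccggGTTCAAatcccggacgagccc
tRNA:Cys-GCA-1-3, chr3L:3096369-3096440, plus strand: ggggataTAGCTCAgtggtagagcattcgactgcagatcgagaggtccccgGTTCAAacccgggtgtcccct
tRNA:Ala-AGC-2-2, chr3R:17619738-17619810, plus strand: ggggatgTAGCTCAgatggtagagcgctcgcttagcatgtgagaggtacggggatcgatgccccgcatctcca

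The second set shows 101 bp around the summit of the strongest peak at some genes with an IDR summit (defined below), on the plus strand. Capitals mark the homeodomain letters TAATTA or TAATTG on either strand. These windows are a selection and do not give the share of windows with these letters. Of all 25 IDR windows near tRNA genes, TAATTA was in 3 and TAATTG in 4. The windows of tRNA:Pro-AGG-1-2 and tRNA:Ala-AGC-2-2, genes printed above, are not shown and hold neither. The windows of tRNA:Tyr-GTA-1-8 and tRNA:Gln-TTG-2-1, which had the strongest peaks, hold neither. The window of tRNA:Cys-GCA-1-2 ends in the first bases of its neighbour tRNA:Cys-GCA-1-3.
tRNA:Tyr-GTA-1-8, chr3R:8669331-8669431, plus strand: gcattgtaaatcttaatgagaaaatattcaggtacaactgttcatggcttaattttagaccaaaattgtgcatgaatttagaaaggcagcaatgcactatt
tRNA:Gln-TTG-2-1, chrX:3427694-3427794, plus strand: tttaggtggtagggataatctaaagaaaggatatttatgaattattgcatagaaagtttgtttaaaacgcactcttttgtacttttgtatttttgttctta
tRNA:Val-CAC-2-5, chr3R:19671819-19671919, plus strand: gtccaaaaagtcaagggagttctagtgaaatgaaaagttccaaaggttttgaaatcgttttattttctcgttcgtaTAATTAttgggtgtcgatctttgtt
tRNA:Leu-TAA-2-1, chr3R:24112743-24112843, plus strand: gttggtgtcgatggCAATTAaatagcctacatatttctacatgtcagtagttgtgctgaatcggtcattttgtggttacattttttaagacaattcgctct
tRNA:Asp-GTC-1-4, chr2L:8541978-8542078, plus strand: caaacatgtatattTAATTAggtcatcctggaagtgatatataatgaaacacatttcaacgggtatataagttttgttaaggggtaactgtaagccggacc
tRNA:Lys-TTT-1-1, chr2L:8290965-8291065, plus strand: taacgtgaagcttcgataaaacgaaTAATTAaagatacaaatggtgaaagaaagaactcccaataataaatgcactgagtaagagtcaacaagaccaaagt
tRNA:Cys-GCA-1-2, chr3L:3096288-3096388, plus strand: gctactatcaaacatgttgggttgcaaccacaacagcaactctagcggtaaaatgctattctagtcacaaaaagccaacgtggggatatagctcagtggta

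A gene was counted where the summit of a peak, the position the authors' caller gave as its highest point, lay within 500 bp of the start of the gene, called its transcription start site (TSS). The list from the pooled replicates and the list of each replicate hold 30000 peaks each. The authors' thresholded set of the IDR method (irreproducible discovery rate), which compares the ranks of peaks between replicates, holds 7927 peaks. These are the 7927 pooled peaks with the highest signal value, a score of the authors' caller. A peak's place in this set therefore follows its pooled signal value and is no separate measure of replicate agreement. In these lists the tRNA genes stood in opposite places. An IDR summit was found at 36 of 290 tRNA genes, 12.4% (exact binomial 95% interval 8.85 to 16.8), below the 20.9% of 13945 protein-coding genes and above the 5.68% of all bases. A pooled summit was found at 168 of 290 tRNA genes, 57.9% (52 to 63.7), above the 44.5% of protein-coding genes and the 18.6% of all bases. The intervals cover counting error only and treat genes as independent, although neighbours share summits, so no test was made.

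Both replicates showed the same order in the long lists. In replicate 1, 179 tRNA genes had a summit, 61.7%, against 45.9% of protein-coding genes. In replicate 2, 171 tRNA genes had one, 59%, against 46.3% of protein-coding genes. Of the 290 tRNA genes, 149 had a summit in both replicate lists, 30 in replicate 1 only, 22 in replicate 2 only and 89 in neither. The 89 genes had no summit in the pooled or IDR lists either, and 33 more had a summit in a replicate but not in the pooled list.

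Most summits at tRNA genes belonged to peaks of middle or low rank. The IDR set is the 7927 peaks of the pooled list with the highest signal value, a score of the authors' caller, so lists of growing length can be read along 1 ranking. Among the 1000 strongest peaks, 2 tRNA genes had a summit, 0.69%, against 3.43% of protein-coding genes. At this number of peaks the tRNA share was near the 0.739% of all bases. In the strongest 50% of the IDR peaks, 13 tRNA genes did, 4.48%, against 11.7% of protein-coding genes and 2.89% of all bases. Between 7927 and 15000 peaks the order turned: with 15000 peaks 113 tRNA genes had a summit, 39%, against 34.1% of protein-coding genes. With 20000 peaks the tRNA count was 143, 49.3%, against 39.1% of protein-coding genes. The shares of all bases were 10.3% with 15000 and 13.2% with 20000 peaks. The strongest peak lay at ranks 7928 to 15000 for 77 tRNA genes and below those ranks for 55 more.

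**Figure D1:**
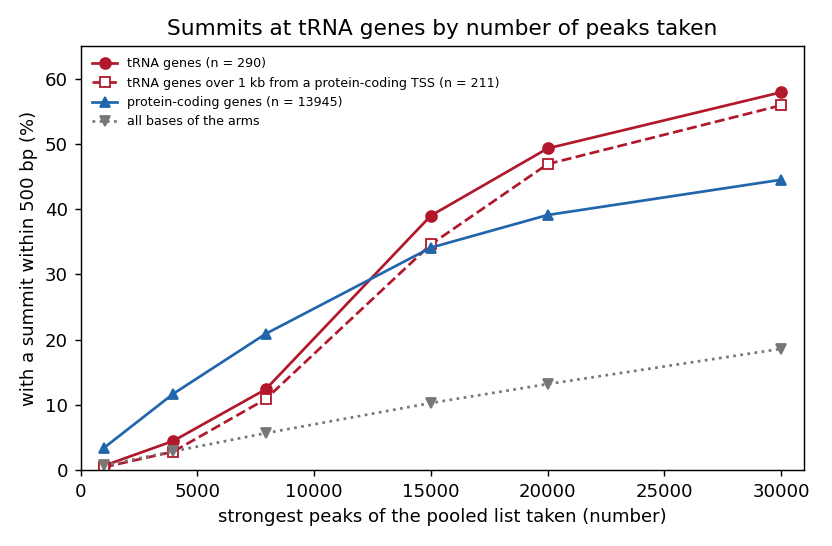
Share of genes with a summit within 500 bp (vertical axis, %) as more of the strongest peaks of the pooled list are taken (horizontal axis), for tRNA genes, tRNA genes over 1 kb from a protein-coding TSS, protein-coding genes and all bases. The tRNA line lies below the protein-coding line at 7927 peaks (12.4% and 20.9%) and above it at 30000 peaks (57.9% and 44.5%).

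The same ranking can be read within the genes that had a summit. Of the tRNA genes with a pooled summit 21.4% also had an IDR summit, against 47% of such protein-coding genes. Both values follow from the shares above. The strongest pooled peak of a gene had a median rank of 12462.5 at tRNA genes and 8439.5 at protein-coding genes. Within the IDR list the median ranks were 5992.5 at tRNA genes and 3436.5 at protein-coding genes. The signal value at the 36 tRNA genes with an IDR summit had a median of 204.9, and at the 132 tRNA genes with a pooled summit alone it ran from 27.04 to 147.7 with a median of 78.85. Of these 132 genes, 109 had a summit in both replicate lists. Because a cluster shares peaks, the 36 genes came down to 25 IDR summits, 0.315% of all IDR summits, and the 168 to 148 pooled summits, 0.493% of all.

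Pooled summits were found at tRNA genes near to and far from protein-coding promoters. The median distance from a tRNA gene to the nearest TSS of a protein-coding transcript was 2895 bp, with a range from 11 to 52670 bp. Of the 211 tRNA genes over 1 kb from such a TSS, 118 had a pooled summit, 55.9% (48.9 to 62.7), against 15.4% of all bases at that distance. In the same 211 genes an IDR summit was found at 23, 10.9% (7.04 to 15.9), against 4.14% of such bases. With as many of the strongest peaks of a single replicate, the count was 14 in replicate 1 and 18 in replicate 2. Of the 79 tRNA genes within 1 kb of a protein-coding TSS, 50 had a pooled and 13 an IDR summit.

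By distance to a protein-coding TSS, pooled shares lay between 43.1% and 65.6% and IDR shares between 2.27% and 25%, with no steady order. With a protein-coding TSS at up to 500 bp, 21 of 32 tRNA genes had a pooled summit (65.6%) and 8 an IDR summit (25%). From there up to 1000 bp the pooled count was 29 of 47 (61.7%) and the IDR count 5 (10.6%). Over 1000 and up to 2000 bp the pooled count was 26 of 44 (59.1%) and the IDR count 1 (2.27%). The lowest IDR share is that of this bin, and the highest that of the first (11.5 to 43.4), whose interval overlaps those further out. Over 2000 and up to 5000 bp 37 of 57 had a pooled summit (64.9%) and 6 an IDR summit (10.5%). Over 5000 and up to 10000 bp 22 of 51 had a pooled summit (43.1%) and 7 an IDR summit (13.7%). Beyond 10000 bp 33 of 59 did (55.9%), and 9 had an IDR summit (15.3%). Of all 36 genes with an IDR summit, 11 had a protein-coding TSS within 500 bp of that summit, so at those 11 the tRNA gene and the promoter cannot be told apart as the place of the peak.

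Other non-coding genes at the same distance from protein-coding genes had pooled summits less often, apart from a small class. Of genes over 1 kb from a protein-coding TSS, a pooled summit was found at 55.9% of tRNA genes, 24.2% of 2325 non-coding RNA genes and 14.7% of 184 small nucleolar RNA genes. Small nuclear RNA genes (snRNA), some of which Pol III also transcribes, had one in 12 of 27 cases, 44.4% (25.5 to 64.7), an interval that overlaps the tRNA interval. Pseudogenes had one in 5.32% of 188 cases and transposable elements in 6.12% of 5079 cases. For IDR summits the share was 10.9% of tRNA genes, 22.2% of snRNA genes, 7.78% of non-coding RNA genes and 3.8% of small nucleolar RNA genes. The tRNA share stands above those of the larger non-coding classes in the pooled list, while in the IDR list the tRNA interval of 7.04 to 15.9% overlaps the 6.73 to 8.95% of non-coding RNA genes.

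Pooled summits at tRNA genes lay close to the gene itself. Within 100 bp of the TSS, 79 tRNA genes had a pooled summit, 27.2% (22.2 to 32.8), against 18.7% of protein-coding genes and 4.5% of all bases. Over 1 kb from a protein-coding TSS this held for 60 tRNA genes, 28.4% (22.5 to 35), against 6.19% of non-coding RNA genes and 3.68% of bases at that distance. The nearest pooled summit was at a median of 107 bp from the TSS of tRNA genes with one within 500 bp, and at 119 bp for protein-coding genes. In 33 cases the pooled summit lay inside a tRNA gene, although these genes are only 71 to 186 bp long with a median of 73 bp.

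The strong peaks did not share this position. The nearest IDR summit was at a median of 215 bp from the TSS of the 36 tRNA genes, against 142 bp for protein-coding genes. An IDR summit within 100 bp was found at 6 tRNA genes, 2.07%, against 6.07% of protein-coding genes and 1.19% of all bases. Over 1 kb from a protein-coding TSS it was found at 2.37% of tRNA genes, 1.63% of non-coding RNA genes and 0.865% of bases. Inside a tRNA gene lay 1 IDR summit. Counted by gene, the nearest IDR summit was upstream of the TSS at 21 tRNA genes and downstream or at it at 15, and the nearest pooled summit was upstream at 93 and downstream or at it at 75. In bins of 100 bp, pooled summits per 100 tRNA genes were most frequent in the 100 bp before the TSS, with 14.1, and in the 100 bp after it, with 13.1. For protein-coding genes the peak of the profile was in the bin from 200 to 100 bp upstream, with 12.8 summits per 100 genes, and the bin after the TSS held 7.31. In these bins a summit near several genes counts once for each, on the side set by that gene's strand, so clustered tRNA genes repeat summits. Fixed peak widths also limit this reading: 73.2% of pooled peaks, and 126 of the 148 near tRNA genes, were exactly 376 bp wide.

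**Figure D2:**
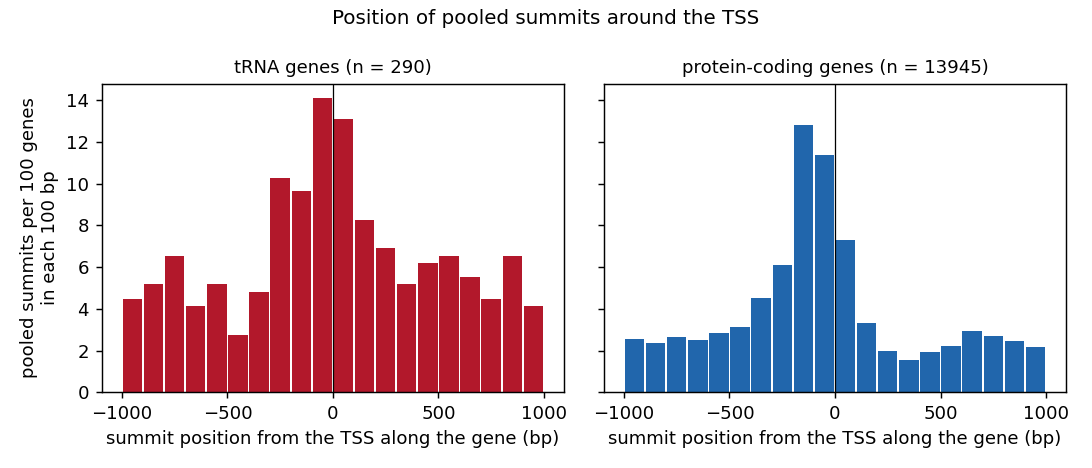
Pooled summits per 100 genes in bins of 100 bp (vertical axis) by position along the gene from its TSS (horizontal axis, bp), for the 290 tRNA genes (left) and the 13945 protein-coding genes (right). Summits at tRNA genes sit on both sides of the TSS (14.1 before it and 13.1 after it), and at protein-coding genes mostly upstream (12.8 in the bin from 200 to 100 bp upstream). A summit near several genes is counted once for each.

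The strongest peaks at tRNA genes, in order of signal value, stood mostly beside protein-coding promoters. The strongest was at tRNA:Tyr-GTA-1-8 (chr3R:8669081-8669174, minus strand), a tyrosine gene with an intron, inside the spans of CG8036 and p. Its IDR signal value was 2545.0, with 1402.4 in replicate 1 (rank 131) and 1141.4 in replicate 2 (rank 114), and the summit lay 207 bp upstream of the tRNA TSS and 237 bp from the TSS of CG8036. No other peak at a tRNA gene ranked as high: the next had rank 711 in replicate 1 and 831 in replicate 2. That next peak, at tRNA:Gln-TTG-2-1 (chrX:3427452-3427523, minus strand), had an IDR signal value of 1042.7, with 623.2 in replicate 1 and 429.2 in replicate 2. Its summit was 221 bp upstream of the tRNA TSS, and the nearest protein-coding TSS, of CG14269, was 8063 bp away. The gene for this glutamine tRNA stands alone, inside CG12535, and no other tRNA gene has its sequence.

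The third was tRNA:Val-CAC-2-5 with an IDR signal value of 687.4 (385.0 in replicate 1 and 295.8 in replicate 2), inside Naam, a nicotinamidase gene whose TSS was 419 bp from the summit. The fourth was tRNA:His-GTG-1-3 with 605.5, where the TSS of CG8490 was 109 bp from the summit. The fifth was tRNA:Leu-TAA-2-1 with 510.2 and the TSS of CG13605 at 404 bp. All 3 had a protein-coding TSS nearer than 500 bp to the summit. A summit at tRNA:Glu-TTC-1-5 (465.4) had none within that distance, and one at tRNA:Phe-GAA-1-2 (409.9) was 72 bp from the TSS of RpL17, a ribosomal protein gene. The pair tRNA:Trp-CCA-2-2 and tRNA:Gly-GCC-1-9 shared 1 peak of 407.4 that was 78 bp from the TSS of CG30122. The list of the 12 strongest ends with tRNA:Gly-TCC-2-2 at 349.7 and with tRNA:Arg-CCT-1-2 and tRNA:Arg-CCT-1-3, which shared 1 peak of 319.3 between them.

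Of the 23 genes over 1 kb from a protein-coding TSS the 15 strongest begin with tRNA:Gln-TTG-2-1 at an IDR signal value of 1042.7, followed by the glutamate, glycine and arginine genes above. Further down, tRNA:Phe-GAA-1-6 had 317.4, with the summit exactly 500 bp upstream, and tRNA:Lys-TTT-1-1, inside the kinase gene Btk, had 276.9. The proline gene tRNA:Pro-AGG-1-2 had 244.4, with 135.0 in replicate 1 and 115.2 in replicate 2. All of these had a summit in both replicate lists. Inside hts, the adducin gene, 1 peak of 171.9 was shared by tRNA:Ser-CGA-1-4, with the summit 44 bp upstream, and tRNA:Val-AAC-2-1. Inside Cht7, a chitinase gene, 1 peak of 167.5 was shared by tRNA:Cys-GCA-1-2, tRNA:Cys-GCA-1-3 and tRNA:Lys-CTT-1-12, and its summit was 31 bp upstream of the second. A peak of 166.3 stood between tRNA:Phe-GAA-1-4 and tRNA:Phe-GAA-1-5, 80 bp upstream of one and 84 bp upstream of the other. These last peaks rank lower, between 7216 and 9145 in replicate 1 and between 7939 and 8638 in replicate 2.

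The replicates ranked tRNA peaks alike at the top and less so below. Of the 36 genes with an IDR summit, 35 had a summit in both replicate lists, and 19 were among those with a summit of the 7927 strongest peaks of both. The exception was tRNA:Glu-CTC-2-3, where the peak of IDR signal value 154.0 had its summit inside the gene and a value of 68.68 in replicate 2, but where no summit of replicate 1 lay within 500 bp. Taking the 7927 strongest peaks of each replicate, 19 tRNA genes had a summit in both, 6 in replicate 1 only and 15 in replicate 2 only. Across the 149 tRNA genes with a summit in both lists the log2 signal values of the replicates correlated with r = 0.747 (Pearson) and rho = 0.535 (Spearman). These are descriptions across genes that share peaks, and both lists were called with the same control file.

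**Figure D3:**
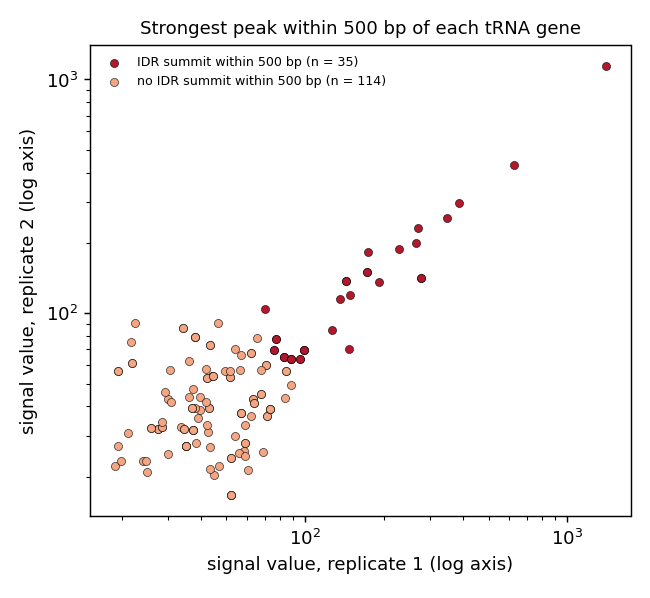
Signal value of the strongest peak within 500 bp of each tRNA gene in replicate 1 (horizontal log axis) and replicate 2 (vertical log axis), for the 149 genes with a summit in both lists, 35 of them with an IDR summit. The points of highest value lie along a line (tRNA:Tyr-GTA-1-8 at 1402.4 and 1141.4), and the points without an IDR summit form a cloud.

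Clustered tRNA genes had pooled summits more often than lone ones. Joining neighbours up to 5 kb apart gave 144 clusters, of which 76 held 1 gene and 10 held 5 or more genes, 72 in all. Of the lone genes 26 of 76 had a pooled summit, 34.2% (23.7 to 46), an interval that includes the 44.5% of protein-coding genes. In clusters of 2 to 4 genes 87 of 142 had one, 61.3% (52.7 to 69.3), and in clusters of 5 or more 55 of 72, 76.4% (64.9 to 85.6). A gene in a cluster can be counted by a summit at its neighbour, and the part of this in the order was not tested. Within 100 bp, where less is shared, the shares were 14.5% of lone genes, 28.9% in clusters of 2 to 4 and 37.5% in clusters of 5 or more. The IDR shares differed less, with 10.5%, 12.7% and 13.9% in the same order and intervals that overlap. By cluster, 78 of 144 had a pooled summit and 23 an IDR summit.

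The largest clusters differed among themselves. On arm 3R a cluster of 11 genes (chr3R:17617761-17631750; 4 alanine, 3 proline, 2 threonine and 2 valine genes) had pooled summits at 9 genes and an IDR summit at 3. Those 3 genes, tRNA:Ala-AGC-2-2, tRNA:Pro-TGG-1-2 and tRNA:Ala-AGC-2-3, shared 1 peak of 153.7 in the IDR list, with 87.96 in replicate 1 and 63.82 in replicate 2. The other peaks of this cluster had pooled signal values of 70.24 to 112.7. Its members without a pooled summit were tRNA:Ala-AGC-2-4 and tRNA:Val-AAC-1-2. In this cluster the alanine copies tRNA:Ala-AGC-2-2 and tRNA:Ala-AGC-2-4 have the same gene sequence, and the first had a summit while the second had none in any list.

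On arm 2R, a cluster of 11 genes in and beside EcR, the ecdysone receptor gene (chr2R:6161535-6171759; 4 lysine, 3 arginine, 3 asparagine and 1 isoleucine gene), had pooled summits at 7 genes and no IDR summit. Its pooled signal values ran from 31.21 to 57.05. The 3 asparagine genes and the neighbouring lysine gene stood at the same peaks of both replicates (35.0 in replicate 1 and 27.09 in replicate 2). A second cluster on 2R (chr2R:19725620-19728958) of 5 glutamate and 2 initiator methionine genes had pooled summits at 7 of 7 genes and IDR summits at 4. There tRNA:Glu-TTC-1-5 stood at 465.4, and tRNA:iMet-CAT-1-1, tRNA:iMet-CAT-1-2 and tRNA:Glu-TTC-1-4 shared a peak of 152.1. A cluster of 5 isoleucine and 2 leucine genes inside ATP8A, a phospholipid flippase gene (chr2R:13430282-13432794), had pooled summits at 5 of 7 genes, at 37.6 to 70.2, and no IDR summit. On X, a cluster of 5 arginine and 2 serine genes (chrX:14014814-14017284) had 1 pooled signal value, 43.65, at 3 neighbouring genes and no pooled summit at the 4 copies of tRNA:Arg-TCG-3.

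The share of tRNA genes with a pooled summit was lowest on X and highest on 2R. Of the 24 tRNA genes on X, 7 had a pooled summit, 29.2% (12.6 to 51.1), while protein-coding genes had their highest share there, 52%. On 2R 72 of 98 tRNA genes had a pooled summit, 73.5% (63.6 to 81.9), against 43.5% of protein-coding genes. On 2L the shares were 53.7% (37.4 to 69.3) of tRNA genes and 41.7% of protein-coding genes. On 3L they were 54.2% (39.2 to 68.6) of tRNA genes and 44.5% of protein-coding genes, and on 3R 51.9% (40.4 to 63.3) of tRNA genes and 42.9% of protein-coding genes. The X interval overlaps those of 2L, 3L and 3R, and the difference between arms was not tested. Of the 24 genes on X, 7 lie in the cluster above, and 3 of the 24 had an IDR summit (tRNA:Gln-TTG-2-1, tRNA:Phe-GAA-1-2 and tRNA:Pro-CGG-2-1). The order of arms among IDR summits was another one: 17.3% of tRNA genes on 2R, 12.5% on X, 10.1% on 3R, 9.76% on 2L and 8.33% on 3L.

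**Figure D4:**
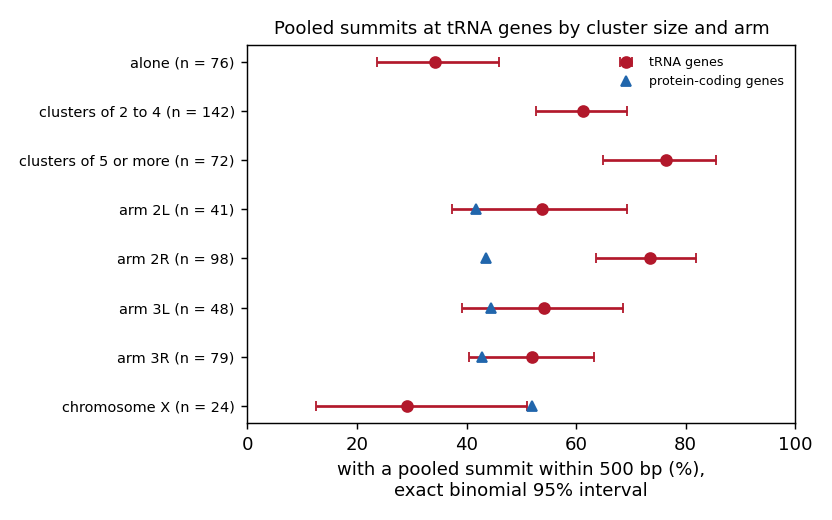
Share of tRNA genes with a pooled summit within 500 bp (horizontal axis, %, circles with exact binomial 95% intervals) by cluster size and by arm, with the share of protein-coding genes on the same arm as triangles. Lone genes (34.2%) and genes on X (29.2%) have the lowest shares, and clusters of 5 or more (76.4%) and arm 2R (73.5%) the highest.

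Every amino acid class had at least 1 gene with a pooled summit, and 18 of the 22 classes had one with an IDR summit. Phenylalanine genes had the highest IDR share, at 4 of 8 genes, followed by initiator methionine at 2 of 6, alanine at 5 of 17 and cysteine at 2 of 7. These shares do not count separate peaks. Both initiator methionine genes with an IDR summit stood at 1 peak (152.1), and both such cysteine genes at 1 peak (167.5). The genes tRNA:Phe-GAA-1-4 and tRNA:Phe-GAA-1-5 shared 1 peak, as did tRNA:Ala-CGC-1-2 and tRNA:Ala-CGC-1-3, and tRNA:Ala-AGC-2-2 and tRNA:Ala-AGC-2-3. No IDR summit was found at 10 asparagine, 11 isoleucine and 6 elongator methionine genes, which allows shares of up to 30.0%, 27.3% and 50% by 3 counts of the total (exact upper limits 30.8%, 28.5% and 45.9%), or at the 1 selenocysteine gene. The selenocysteine gene did have a pooled summit, at a signal value of 43.31 and with 19.22 in replicate 1 and 27.16 in replicate 2. In the pooled list the highest shares among classes of more than 1 gene were those of histidine at 4 of 5 genes, glutamate at 14 of 19, asparagine at 7 of 10 and aspartate at 10 of 14. The lowest were methionine at 2 of 6 and valine at 5 of 15. With so few genes per class these shares are loose, and peaks are shared within classes and, in mixed clusters, between them.

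**Figure D5:**
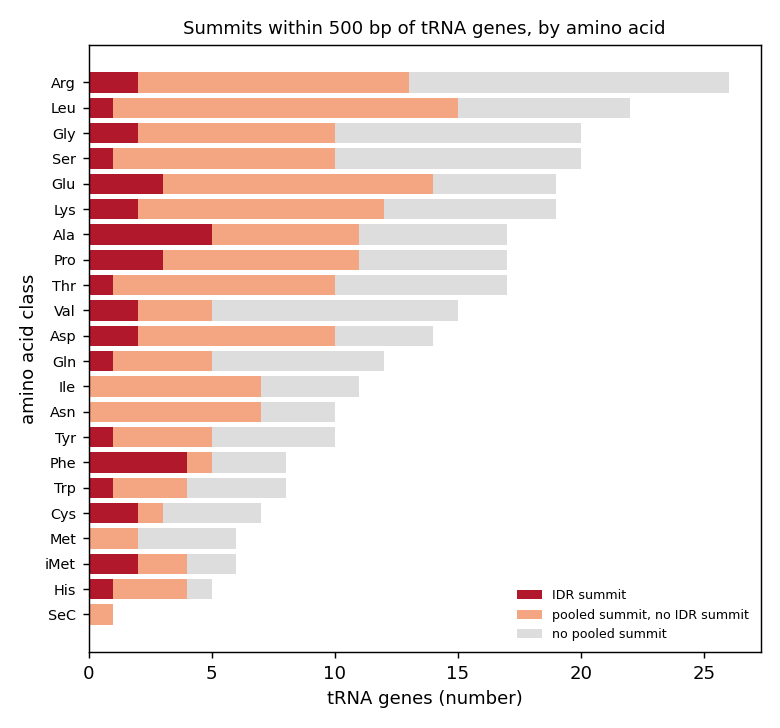
Number of tRNA genes (horizontal axis) by amino acid class (vertical axis), split into genes with an IDR summit within 500 bp, with a pooled summit alone and with no pooled summit. Alanine has most genes with an IDR summit (5 of 17), and asparagine and isoleucine have pooled summits (7 of 10 and 7 of 11) but no IDR summit.

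Anticodons of 1 amino acid could differ, in examples chosen after their values were seen. Lysine genes of anticodon CTT had a pooled summit at 11 of 13 genes and those of anticodon TTT at 1 of 6. The 5 copies of tRNA:Lys-TTT-2 had no pooled summit, and the 1 lysine TTT gene that did was tRNA:Lys-TTT-1-1. Leucine CAG genes had one at 7 of 8 genes. Genes with an intron, 16 in all, had a pooled summit at 8 and an IDR summit at 1, the tyrosine gene above. A place inside a protein-coding gene went with a like share in the pooled list: 78 of 134 such tRNA genes had a summit (58.2%), against 90 of 156 elsewhere (57.7%). In the IDR list the counts were 13 of 134 inside and 23 of 156 outside.

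Copies with the same sequence often differed in whether they had a summit. The 290 genes have 95 distinct sequences, and 238 genes belong to 43 groups of identical copies. In 21 of the 43 groups some copies had an IDR summit and others did not, in 22 none did, and in 0 all did. For pooled summits 32 groups were mixed, in 4 all copies had one and in 7 none did. Beside these counts stand the shares of all tRNA genes, 12.4% with an IDR summit and 57.9% with a pooled summit. Copies in 1 cluster can also share a peak. Whether identical copies differed more or less often than other tRNA genes was not tested. The largest mixed groups were tRNA:Gly-GCC-1, with an IDR summit at 1 and a pooled summit at 5 of 13 copies, and tRNA:Lys-CTT-1, with 1 and 11 of 13. The aspartate group tRNA:Asp-GTC-1, printed above, had an IDR summit at 2 and a pooled summit at 9 of 12 copies. Both of its IDR copies, tRNA:Asp-GTC-1-4 and tRNA:Asp-GTC-1-5, shared 1 peak of 284.4 that lay 119 bp from the TSS of Sema1a, a semaphorin gene. The proline group tRNA:Pro-AGG-1, named here after its values were seen, had a pooled summit at 7 of 7 copies.

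Pooled shares by sequence copy number had overlapping intervals. Genes with a sequence of their own had a pooled summit in 26 of 52 cases, 50% (35.8 to 64.2), genes with 2 to 4 copies in 51.7% (38.2 to 65) and genes with 5 or more copies in 62.2% (54.7 to 69.3). In the IDR list the shares were 9.62%, 19% and 11.1% in the same order, and these intervals overlap too. How reads that match several copies were placed is not given in the sources used here, and the part of this in the counts was not tested.

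Pooled summit windows near tRNA genes held the B box core more often than other windows, and less so where they held no tRNA sequence. The B box core GTTCNA, searched on both strands in 101 bp, was in 41.2% of the 148 windows near tRNA genes, against 14.8% of all other pooled windows and 14.9% of all windows of that width on the arms. In the 83 of these windows that held no tRNA sequence the share was 18.1% (10.5 to 28). The A box core TGGCNNA was in 25% of the windows near tRNA genes, against 19.2% of other pooled windows and 22.8% of all windows. The A box form TAGCNNA, added after the data were seen, was in 23% of the windows near tRNA genes, against 14.3% of other pooled windows and 13.1% of all windows. In the 83 windows without tRNA sequence TGGCNNA was in 14.5% (7.7 to 23.9) and TAGCNNA in 16.9% (9.54 to 26.7). These A box intervals include the shares of other pooled windows. Of the homeodomain letters, TAATTA was in 6.08% of windows near tRNA genes and in 8.43% (3.46 to 16.6) of those without tRNA sequence, against 7.54% of other pooled windows and 6.47% of all windows. The form TAATTG was in 9.46% of windows near tRNA genes and in 13.3% (6.81 to 22.5) of those without tRNA sequence, against 9.29% of other pooled windows. Both intervals include the share of other pooled windows.

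In the 25 IDR windows near tRNA genes the B box core was found in 8, 32% (14.9 to 53.5), and in 7 of the 22 without tRNA sequence, 31.8% (13.9 to 54.9), against 15.6% of other IDR windows. TAATTA was found in 3 of the 25, 12%, against 11% of other IDR windows. TAATTG was found in 4 of the 25, 16%, against 10.9% of other IDR windows. Other letters searched in the 148 pooled windows were GAGAG (13.5% near tRNA genes, against 11.6% of other pooled windows), TATCGAT (0.676%, against 2.47%), CACACT (6.08%, against 6.17%) and TTTTT (56.8%, against 49.1%). The G and C content was 39.2% in pooled windows near tRNA genes and 34.7% in those of them without tRNA sequence, against 38.7% in other pooled windows and 42.2% in all windows. In IDR windows it was 34.7% near tRNA genes and 32.9% in those without tRNA sequence, against 31.8% in other IDR windows. Genes with and without a summit held the B box core about equally often, as it was in 94% of the 168 tRNA genes with a pooled summit, against 93.4% of the 122 without one. A run of TTTT in the 20 bp after the gene was found in 82.1% of those with a summit, against 86.1% of those without.

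The threshold of 500 bp divides neighbouring values. Just inside it stood tRNA:Val-CAC-2-5 with its IDR summit at 480 bp, tRNA:Ala-TGC-2-1 at 492 bp and tRNA:Phe-GAA-1-6 at 500 bp. Just outside it stood tRNA:Ile-AAT-1-9 at 522 bp, tRNA:Leu-CAA-2-2 at 565 bp and tRNA:Cys-GCA-1-1 at 601 bp. The end of the IDR list is a threshold too, as its lowest signal value was 151.5. Just above it stood the peak of tRNA:Glu-CTC-2-3 (154). So did the peak shared by tRNA:Ala-AGC-2-2, tRNA:Pro-TGG-1-2 and tRNA:Ala-AGC-2-3 (153.7), and that shared by tRNA:iMet-CAT-1-1, tRNA:iMet-CAT-1-2 and tRNA:Glu-TTC-1-4 (152.1).

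Among genes for other transcripts of Pol III, those of 5S ribosomal RNA had no summit and several of the rest did, counting a gene where one lay within 500 bp of any of its own starts. Of all 106 such genes 3 had an IDR and 6 a pooled summit, while all protein-coding genes counted in this way had one in 23.5% (IDR) and 46.4% (pooled). The list is mostly 96 genes of 5S ribosomal RNA, which lie together on 2R and had 0 pooled summits, allowing a share of up to 3.12% (3 counts of the total) for counting error only. How reads that match several of these copies were placed is not given, and its part in the 0 was not tested. The summits all stood at the other 10 genes, 6 of which had a pooled and 3 an IDR summit. Of these, the U6 spliceosomal RNA genes snRNA:U6:96Ab and snRNA:U6:96Ac shared an IDR peak of 358.5, and snRNA:7SKa, whose RNA holds back transcription elongation, had one of 321.8. In the pooled list alone RNaseMRP:RNA stood at 98.13, RNaseP:RNA, the RNA of the enzyme that trims tRNA 5′ ends, at 35.78 and snRNA:7SKb at 26.97. Both genes of the signal recognition particle RNA, snRNA:U6:96Aa and snRNA:U6atac had no pooled summit.

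Protein-coding genes for the Pol III machinery and for tRNA processing, 30 in all, had an IDR summit in 11 cases and a pooled summit in 19. The shares of all protein-coding genes are the 23.5% and 46.4% above, and the list was not tested. The strongest peaks stood at Bdp1 (1557.6) and Brf (1381.7), both subunits of TFIIIB, the factor that recruits Pol III. The next stood at the polymerase subunit genes Polr3E (983.9), Polr2H (781.6) and Polr2F (366.7), of which the last 2 serve other RNA polymerases too. No pooled summit was found at cbc, whose human homologue is an RNA kinase of tRNA splicing, at Maf1, a repressor of Pol III, or at Pbp45, a subunit of the complex that binds the promoters of snRNA genes.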

How the data were processed

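The deposited files are peak lists of replicate 1, of replicate 2 and of both pooled, each called with the same control file, and an IDR set derived from them, all on assembly dm6 per the deposited text files and the labels. No aligner, caller, caller setting or cutoff of the IDR method is given in the sources used here. Chromatin was sheared by sonication to a size range of 200 to 800 per the labels. The signal value of a peak is a score by the authors' caller, whose scale differs between lists, so no ratio was taken between lists. The summit is another value that the authors deposited, in bp from the peak start. Each of the replicate and pooled lists ends at 30000 peaks, so the number of peaks was capped. The embryo age is that of the source name and the antibody that of the description, since the label fields for both hold other entries.

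Genes are those of Ensembl release 115 on genome release 6, and sequences are from RefSeq's copy of that genome. The TSS of a gene is the start of its span, and distances to protein-coding genes use every transcript start. Clusters join tRNA genes whose neighbours lie up to 5 kb apart. Shares have exact binomial (Clopper-Pearson) 95% intervals, which cover counting error only, and limits at a count of 0 are 3 counts of the total. With 1 group of 2 replicates no test of conditions exists and none was made. The counting was tested on simulated data. The members, lists and motifs were chosen with earlier results of these data known. The tRNA genes named are the 12 with the strongest IDR peak, the 15 strongest over 1 kb from a protein-coding TSS, the 3 on either side of the window, the 5 largest clusters, the 3 largest mixed groups of identical copies, the amino acids of highest and lowest share, and from the other lists the 5 strongest and 3 without a summit. Alternatives were other windows, peak numbers, lists, linkages and distances, and each replicate alone. Python 3.11.15, numpy 2.4.6, pandas 2.3.3, scipy 1.17.1 and matplotlib 3.10.9 were used.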

Additional observations from a re-analysis of the deposited data

How the results depend on the processing

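Of the 40 alternative values, 15 stayed close to the value reported and 25 moved, mostly with the number of peaks and the window, as their construction sets. A count was called close up to a 1.5-fold change, a wide limit that takes 25 genes as close to 36. The median distance was called close where it changed by less than 7.42 bp, the standard deviation between the replicates. The count of 36 tRNA genes with an IDR summit became 6 within 100 bp, 21 within 250 bp, 59 within 1000 bp, 13 with the strongest 50% of IDR peaks, 2 with the 1000 strongest, 168 with the pooled list and 15 where the peak had to overlap the gene body. The 23 clusters became 5 within 100 bp, 11 with 50% of IDR peaks, 2 with 1000 peaks and 78 with the pooled list. The 23 genes over 1 kb from a protein-coding TSS became 5, 14 and 42 within 100, 250 and 1000 bp, 6 with 50% of IDR peaks, 1 with 1000 peaks, 118 with the pooled list and 14 (replicate 1 alone) to 18 (replicate 2 alone). The 25 IDR summits became 5 within 100 bp, 38 within 1000 bp, 11 with 50% of IDR peaks, 2 with 1000 peaks and 148 with the pooled list. The median distance of 215 bp became 107 bp with the pooled list and 220.5 to 231 bp with 1 replicate. With 1 replicate the count of 36 genes became 25 in replicate 1 and 34 in replicate 2. Leaving out genes named as pseudogenes was not run, because 0 members carry such a name. No paired analysis was possible because there is 1 group only. Depth is unknown, and weak peaks at the end of lists of fixed length limit what can be said of genes without a summit.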
